A study of Homo sapiens with 6 samples.

Results

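C/D box small nucleolar RNAs (snoRNAs) were followed in human neural stem cells treated with X5050, a compound that the series title calls an inhibitor of the repressor REST. The members were the gene symbols starting with SNORD that stood alone on a probe set of the array. They numbered 115 of the 18417 symbols measured, and each was represented by 1 probe set. RefSeq held an entry for all 115, with lengths of 60 to 205 bases and a median of 81 bases. They were divided into 20 copies of SNORD116 and 20 copies of SNORD115, 4 copies of SNORD114 and 2 of SNORD113, all from imprinted repeat clusters, and 69 other snoRNAs. Another 49 probe sets carried several symbols with at least 1 SNORD symbol among them, including 5 with the U3 snoRNA, and are described only as a set.

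The X5050 group held 3 samples of cells given 100 µM X5050, and the DMSO group held 3 samples given the solvent DMSO at 0.1%. All cells were neural stem cells derived from 1 human embryonic stem cell line, SA-01, at passage 14. Treatment began 5 h after plating and lasted 24 h. Per the design text the 6 samples stand for 3 separately grown cultures, each of which was taken to have supplied 1 sample per treatment, and the replicate number was taken as the culture. RNA was isolated on RNeasy columns and 100 ng was labelled for 1 Affymetrix whole-transcript array per sample. All results come from 1 cell line at 1 dose and 1 time.

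C/D box snoRNAs are short nuclear RNAs named for 2 conserved sequence boxes. Together with the proteins fibrillarin (FBL), NOP56, NOP58 and SNU13 they form particles in which the RNA pairs with a target and fibrillarin adds a methyl group to the ribose of the paired base. Most targets lie in ribosomal RNA, and a few members, U3 among them, act in cutting the ribosomal RNA precursor. In human cells most C/D box snoRNAs are cut from introns of other genes after splicing, so their amount depends on transcription of a host gene, splicing, and protection of the excised RNA by the particle's proteins. Many hosts encode ribosomal proteins or are non-coding RNAs such as GAS5. SNORD116 and SNORD115 lie in the Prader-Willi region of chromosome 15, are expressed from the paternal copy and are known from brain. SNORD113 and SNORD114 lie in an imprinted cluster on chromosome 14 and are expressed from the maternal copy. Columns that retain long RNA recover RNAs of this length incompletely, and probes of such an array can also bind the intron or precursor that holds the snoRNA, so a signal here is not the amount of mature snoRNA alone.

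Many host genes of snoRNAs are known to start transcription in a run of C and T bases. The stretches below are annotated starts of hosts of measured snoRNAs, shown so that this feature can be seen. GAS5, the host of the member with the lowest change, is included because its annotated RefSeq start lacks the run. Whether GAS5 has another start with the run was not examined. Each holds 40 bases before the RefSeq start and 20 bases from it, read on the host's strand in GRCh38.p14. Capitals mark the uninterrupted run of C and T from the annotated start. They lie at chr9:133348178-133348237 (RPL7A, plus strand), chr19:49487568-49487627 (RPL13A, plus strand), chr11:75399478-75399537 (RPS3, plus strand), chr6:85678714-85678773 (SNHG5, minus strand), chr20:49278602-49278661 (ZFAS1, plus strand) and chr1:173869026-173869085 (GAS5, minus strand).
RPL7A: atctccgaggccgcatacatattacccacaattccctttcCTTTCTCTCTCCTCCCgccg
RPL13A: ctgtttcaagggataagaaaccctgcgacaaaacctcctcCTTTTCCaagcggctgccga
RPS3: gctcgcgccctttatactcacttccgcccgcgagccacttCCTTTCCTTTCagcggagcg
SNHG5: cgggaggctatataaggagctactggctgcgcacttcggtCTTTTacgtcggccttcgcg
ZFAS1: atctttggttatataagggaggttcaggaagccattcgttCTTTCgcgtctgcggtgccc
GAS5: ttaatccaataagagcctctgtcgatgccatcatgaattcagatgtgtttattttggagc
A start was counted when its first base was C and the run of C or T was at least 5 bases long, on the host's strand only. This held for 13 of the 42 host starts in the table (31%), from 13 of 35 hosts, against 1429 of all 35116 starts (4.07%). Among starts of ribosomal protein hosts it held for 4 of 6. Another 8 hosts were not in the table. Hosts were assigned by position without regard to strand, so some of those counted, such as SIPA1L1 and FOXK1, may be no true hosts. The count describes the letters at the annotated starts and says nothing of where transcription began in these cells.

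The samples were checked against marker lists of the cell types the cultures could hold. The neural stem cell genes SOX2 (11.03 with X5050 and 10.88 with DMSO), PAX6 (10.67 with X5050 and 10.80 with DMSO) and NES (8.75 with X5050 and 9.17 with DMSO) had mean log2 signals above the upper quartile of all probe sets, 7.39, in both groups. By the mean over all 6 arrays 7 of the 11 genes of that list lay above it, SOX1, HES1, HES5 and LIX1 below. Of 7 neuronal genes 5 lay above it, among them STMN2 at 12.25 with X5050 and 12.22 with DMSO, and RBFOX3 and ELAVL4 below. Of 8 mesenchymal markers 8 had a change below 0, with a median of -0.34, and their summed log2 signal was 54.5 to 65.6 with X5050 and 57.5 to 70.6 with DMSO. The neural stem cell list summed to 97.8 to 98.8 with X5050 and 100.5 to 100.7 with DMSO, with 8 of 11 genes below 0, and the neuron list to 62.4 to 64.6 with X5050 and 61.0 to 64.2 with DMSO, with 3 of 7 below 0. In the paired fit LIX1 and LUM passed as lower and SNAP25 as higher. The astrocyte, oligodendrocyte, pluripotent and endothelial lists had median changes between -0.16 and 0.15. The part of these lists in the snoRNA values was not tested. Fewer cells of a type and less RNA per cell cannot be told apart in such samples.

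As a class, the C/D box snoRNAs lay lower with X5050 than with DMSO, by a small amount. The change is the difference of the mean log2 signals, X5050 minus DMSO. It was below 0 for 81 of 115 members, 70.4%, against 47.3% of all 19460 probe sets tested, and above 0 for 34 members (52.7% of all tested probe sets). The median change of the members was -0.14, with the middle 50% between -0.27 and 0.02, and the median of all tested probe sets was 0.01. The X5050 values all lay below the DMSO values for 19 members (7.41% of all tested probe sets) and all above them for 0 members (7.51%). Within the cultures, 38 members were lower in all 3 (17.5% of all tested probe sets) and 5 were higher in all 3 (18%). Without culture 2 the median change of the members was -0.07. SNORD115 had 10 copies below 0 and 10 above, and the 2 SNORD113 copies lay above 0. Many members share a precursor, so these counts are not of independent measurements.

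Few single members passed a test. In limma's fit without the culture as a term, 0 of 115 members and 0% of all tested probe sets passed an adjusted p of 0.05 in either direction. At an unadjusted p under 0.05 the fit had 15 members lower (4.88% of all tested probe sets) and 0 higher (4.5%). The replicate numbers paired the samples over all probe sets, so the fit was also run with the culture as a block. In this paired fit 2 members passed as lower (0.308% of all tested probe sets) and 0 as higher (0.19%). At an unadjusted p under 0.05 the paired fit had 24 members lower (7.48%) and 1 higher (7.06%). Each p-value measures the spread among 3 cultures of 1 line. An exact permutation test of 3 against 3 unpaired samples cannot go below 0.1, and with 3 pairs the lowest possible value is higher still.

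**Figure D1:**
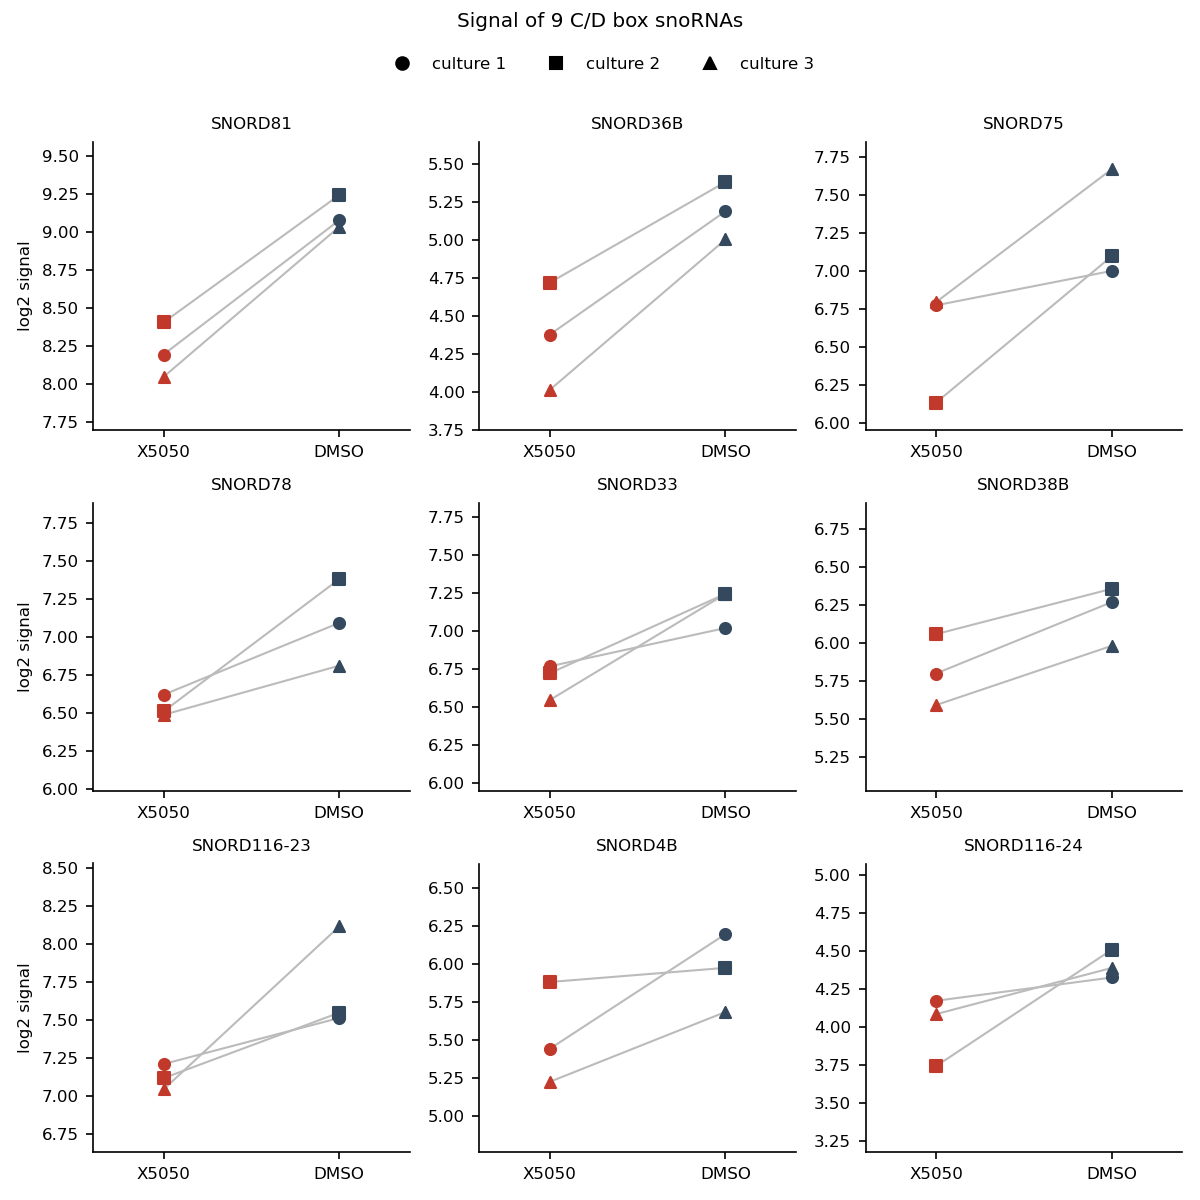
Log2 signal of the 9 members below 0 that ranked first by p when cultures were paired, with X5050 on the left and DMSO on the right of each panel. Points of a culture share a symbol and are joined by a line, every panel spans the same range of log2 units, and every line lies lower at X5050.

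The member with the lowest change was SNORD81, which guides methylation of the large-subunit ribosomal RNA and is held in an intron of GAS5. Its log2 signal was 8.19, 8.40 and 8.05 with X5050 in cultures 1 to 3, against 9.08, 9.24 and 9.03 with DMSO. The groups did not overlap, and the 3 cultures differed by nearly the same amount, -0.88, -0.84 and -0.99. The change of -0.90 (95% interval -1.11 to -0.70 in the paired fit) is a 1.87-fold lower signal. Its adjusted p was 0.0126 in limma's paired fit and 0.172 without the block. Without culture 3 the paired adjusted p was 0.105.

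SNORD36B, a guide for the small-subunit ribosomal RNA in an intron of the ribosomal protein gene RPL7A, was the other member past the threshold. Its log2 signal was 4.38, 4.72 and 4.02 with X5050, against 5.19, 5.38 and 5.00 with DMSO. These values lay below the median probe set, 5.70, and the X5050 value of culture 3 lay below the lower quartile, 4.11. No detection measure was used. The groups did not overlap although the cultures differed in level, with culture 2 the highest and culture 3 the lowest under both treatments. The change was -0.82 (95% interval -1.04 to -0.60 in the paired fit), a 1.77-fold lower signal. Limma's adjusted p was 0.0246 in the paired fit, 0.337 without the block and 0.162 in the paired fit without culture 3.

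The members that came next did not pass. SNORD75, a large-subunit guide in GAS5, had 6.78, 6.14 and 6.80 with X5050 against 7.00, 7.10 and 7.67 with DMSO, a change of -0.69 with a limma adjusted p of 0.0845 in the paired fit. SNORD78, also a large-subunit guide in GAS5, had 6.62, 6.51 and 6.49 with X5050 against 7.09, 7.38 and 6.81 with DMSO, a change of -0.56 with a limma adjusted p of 0.0897. For both the groups did not overlap. SNORD33, a small-subunit guide in RPL13A, had 6.77, 6.72 and 6.54 with X5050 against 7.02, 7.24 and 7.24 with DMSO, a change of -0.49 with a limma adjusted p of 0.0964 in the paired fit. Its groups did not overlap either. SNORD38B, a large-subunit guide, had a change of -0.39 that was close in the cultures (-0.47, -0.30 and -0.39), but its X5050 values of 5.59 to 6.06 overlapped the DMSO values of 5.98 to 6.36. SNORD4B in RPL23A overlapped too, at 5.22 to 5.88 with X5050 and 5.68 to 6.20 with DMSO, with a change of -0.44.

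Size and steadiness did not go together in every case. SNORD59B, in the ATP synthase gene ATP5F1B, had the third-lowest change, -0.74, yet it came from culture 2 (-1.63) and culture 3 (-0.63), and culture 1 had 0.05. SNORD57, in the gene for the C/D box protein NOP56, lay on a bright probe set and had a small, even change. Its signal was 9.59, 9.58 and 9.81 with X5050 against 9.85, 9.93 and 10.02 with DMSO, a change of -0.27 without overlap and with a limma adjusted p of 0.198 in the paired fit.

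No member passed as higher. The highest change was that of SNORD59A, in the same host as SNORD59B, at 3.19, 3.81 and 3.76 with X5050 against 3.11, 3.63 and 2.94 with DMSO. The groups overlapped, culture 3 gave most of the change of 0.36, and the limma adjusted p was 0.29 in the paired fit. SNORD8, in CHD8 and known as a guide for the spliceosomal U6 RNA, had a change of 0.28, with culture 1 at -0.08. SNORD56B (0.22), SNORD50A (0.16) and SNORD53 (0.12) were among the other members above 0, all with overlapping groups, and each turned below 0 when 1 array or culture was left out.

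**Figure D2:**
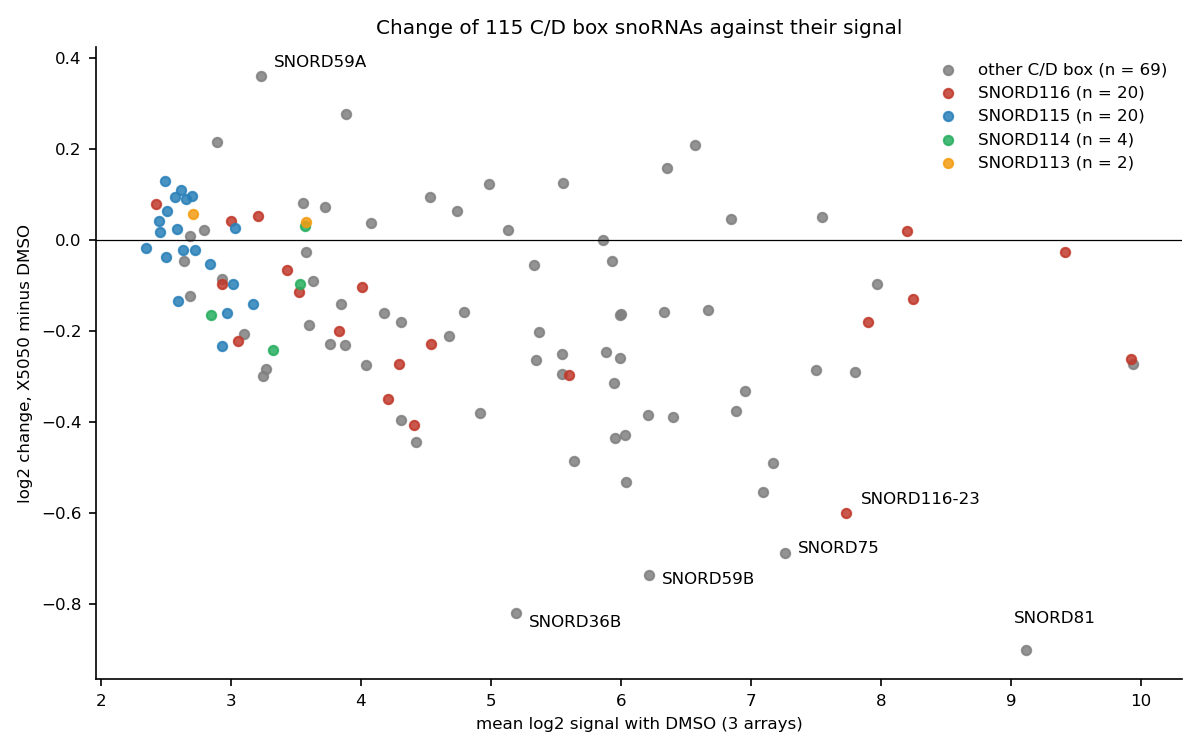
Change (log2 signal, X5050 minus DMSO) of the 115 members against their mean log2 signal with DMSO, coloured by group. SNORD115 copies crowd at the left near 0, and changes below -0.5 belong to SNORD116-23 and to snoRNAs outside the repeats.

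The 69 snoRNAs outside the imprinted repeats had a median change of -0.19, and 52 of them (75.4%) were below 0. Those with a signal at or above the median probe set, 29 in number, had a median change of -0.29 with 25 below 0, and the 40 dimmer ones had a median of -0.15 with 27 below 0. No detection measure was used, so whether a dim member was detected at all is not known. The median of the 69 was -0.07 in culture 1, -0.26 in culture 2 and -0.13 in culture 3. Without culture 2 the median of their changes was -0.08, and that of all 115 members was -0.07. Culture 2 carried much of the shift, although the medians were below 0 in each culture.

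The cultures did not behave as tight pairs for these RNAs. Over all tested probe sets the deviations of same-numbered samples from their group means correlated at 0.36, 0.30 and 0.25, but over the 115 members at 0.15, -0.24 and -0.10. The correlations are across probe sets of the same arrays and are given as a description. The median of the mesenchymal markers was -0.41, -0.43 and -0.11 in cultures 1 to 3, while that of all C/D box members was -0.05, -0.19 and -0.07.

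**Figure D3:**
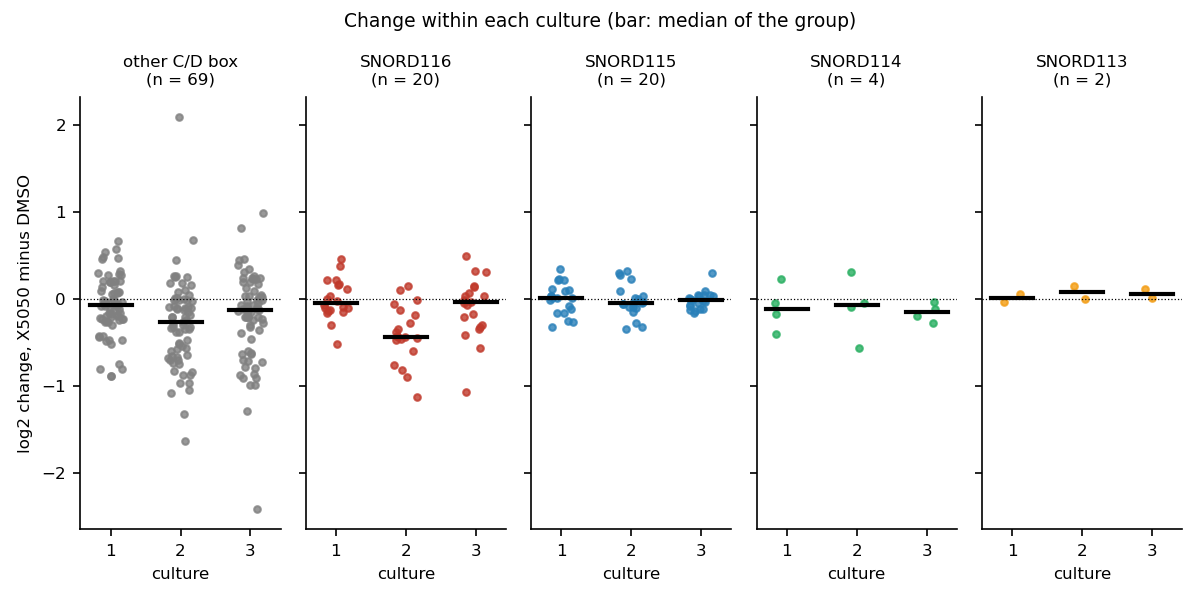
Change (log2 signal, X5050 minus DMSO) within each of the 3 cultures, with 1 point per member and a black bar at the group's median. In culture 2 the SNORD116 median was -0.44 and that of the 69 other snoRNAs -0.26, the lowest of the 3 cultures for both.

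Other classes of short RNA had median changes nearer 0. The 61 H/ACA box snoRNAs (SNORA symbols), which guide pseudouridylation with a different set of proteins, had a median change of -0.04 with 36 below 0. The 16 Cajal body RNAs (SCARNA) had a median of 0.04 with 5 below 0, and the 189 microRNA genes a median of 0.02 with 82 below 0. The X5050 values all lay below the DMSO values for 6 of 61 H/ACA members, 1 of 16 Cajal body members and 5 of 189 microRNA genes. They all lay above them for 2, 1 and 6. Of all tested probe sets 7.41% had all values below and 7.51% all above. In the paired fit 1 H/ACA member, 1 Cajal body member and 0 microRNA genes passed as lower (0.308% of all tested probe sets). In these classes 0 passed as higher (0.19%). The lowest changes were -0.82 for H/ACA and -0.70 for Cajal body members, and the highest were 0.73 and 0.68. The difference between these classes and the C/D box members was not tested. The 49 probe sets with several symbols had a median change of -0.18, with 39 below 0. Their X5050 values all lay below the DMSO values for 14 (7.41% of all tested probe sets) and all above for 0 (7.51%).

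SNORD116 copies differed widely in signal. Their DMSO means ran from 2.43 to 9.92, with copies 6, 14, 15, 20, 21 and 23 above the upper quartile of all probe sets and 10 of 20 below the lower quartile, 4.11, by the mean over all 6 arrays. Signals of different probe sets are not amounts that can be ranked, and near-identical copies can share probes or bind each other's RNA, so the copies are not independent measurements. The median change was -0.16, with 16 of 20 below 0. For 5 copies the X5050 values all lay below the DMSO values (7.41% of all tested probe sets). The 6 bright copies and the 14 others each had a median of -0.16. The lower median rested on culture 2, where 18 of 20 copies were lower and the median was -0.44, against -0.04 in culture 1 and -0.04 in culture 3. Without culture 2 the median was -0.02.

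Among the bright copies, SNORD116-23 stood lowest, at 7.21, 7.12 and 7.05 with X5050 against 7.52, 7.55 and 8.12 with DMSO. The groups did not overlap, and the high DMSO value of culture 3 gave most of the change of -0.60, whose limma adjusted p was 0.115 in the paired fit. SNORD116-15 had 9.74, 9.65 and 9.58 with X5050 against 9.85, 9.99 and 9.92 with DMSO, also without overlap, a change of -0.26. By contrast SNORD116-6 had 9.66, 9.44 and 9.07 with X5050 against 9.20, 9.57 and 9.48 with DMSO, a change of -0.03 that is above 0 in culture 1 (0.46) and below 0 in culture 3 (-0.41). Among the dimmer copies SNORD116-24 had 4.17, 3.74 and 4.08 with X5050 against 4.32, 4.51 and 4.39 with DMSO, a change of -0.41. SNORD116-18, the dimmest copy, had a change of 0.08. These copies come from 1 precursor, and their changes did not move as a block.

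All 20 SNORD115 copies lay below the lower quartile of probe sets, with DMSO means of 2.35 to 3.17. SNORD115 has been described in neurons and brain, with a proposed target in the serotonin receptor HTR2C messenger RNA. Its median change was 0.00, with 10 copies below 0 and 10 above. SNORD115-38 had the lowest change at 2.55, 2.79 and 2.75 with X5050 against 2.81, 3.12 and 2.86 with DMSO, a change of -0.23. The X5050 values lay just below the DMSO values, and its limma adjusted p in the paired fit was 0.287. SNORD115-34 had the highest change, 0.13, with X5050 values of 2.43 to 2.71 and DMSO values of 2.42 to 2.56 that overlapped. SNORD115-31 (-0.13) and SNORD115-32 (-0.14) lay below 0 in all 3 cultures, and SNORD115-41 (0.11) and SNORD115-8 (0.09) above 0 in all 3. SNORD115-2 had a change of 0.09, and SNORD115-14 and SNORD115-4, which had DMSO means of 2.45 and 2.35, had changes of 0.04 and -0.02. None of the 20 copies passed the threshold in either fit.

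**Figure D4:**
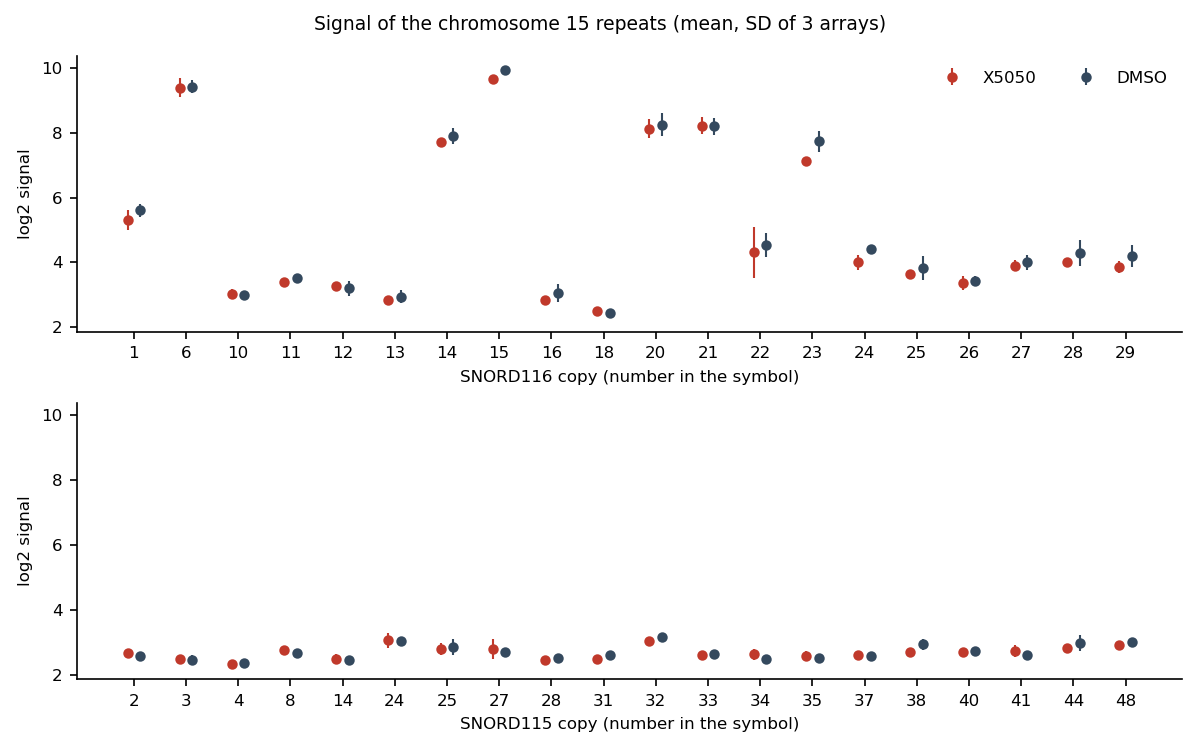
Mean log2 signal of each SNORD116 copy (above) and SNORD115 copy (below), with X5050 in red left of DMSO in dark blue and bars of 1 SD over 3 arrays. In SNORD116, 6 copies lie above 7 under both treatments, while the SNORD115 copies with DMSO lie between 2.35 and 3.17.

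The chromosome 14 repeats were dim as well, with all 6 copies below the lower quartile. SNORD114 had a median change of -0.13 over 4 copies, of which SNORD114-6 had 2.65, 2.76 and 2.64 with X5050 against 2.82, 2.81 and 2.92 with DMSO. These groups did not overlap, but the change was -0.17. SNORD114-2 had a change of -0.24 that came mainly from its DMSO value in culture 2, and SNORD114-26 had -0.10, with 0.30 in culture 2. The 2 SNORD113 copies, SNORD113-3 and SNORD113-4, had changes of 0.04 and 0.06 with overlapping groups.

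Genes near these repeats had a median change of -0.01 for chromosome 15 and -0.01 for chromosome 14, with single genes further from 0. Of 13 genes listed for the chromosome 15 region 6 had a probe set of their own, SNRPN and SNHG14 not among them, and 0 passed in either direction in either fit. NDN, an imprinted gene with paternal expression, had 6.25, 6.15 and 6.30 with X5050 against 6.50, 6.30 and 6.51 with DMSO, a change of -0.20 with values that overlapped at their edges. MKRN3 (-0.07), UBE3A (-0.03) and PWAR6 (0.06) lay closer to 0. For chromosome 14, 4 of 6 genes had a probe set and 0 passed. DIO3, the deiodinase of thyroid hormone, had a change of -0.34 without overlap, DLK1 0.23, RTL1 -0.08 and MEG3 0.06.

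Host genes were found by position, as the RefSeq gene whose span holds the snoRNA. This gave 43 hosts for 113 members, 40 of them in SNHG14 and 6 in MEG8. The RefSeq table used carries no strand for the snoRNAs, so a host here is the gene that spans the member on either strand, and unusual pairs such as SNORD56B in SIPA1L1 or SNORD13P2 in FOXK1 may be no true hosts. Outside the imprinted repeats, 21 members lay in 10 ribosomal protein genes, with 18 below 0 and a median change of -0.25. Of these 12 were lower in all 3 cultures (17.5% of all tested probe sets). Another 19 lay in 10 non-coding hosts, with 14 below 0 and a median of -0.21, and 27 in 21 other protein-coding genes, with 18 below 0 and a median of -0.14. The difference between these classes was not tested. Members of 1 host share a precursor and are not independent.

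GAS5, a non-coding RNA known for its growth-dependent turnover, held the most members outside the imprinted clusters. Of its 7 snoRNAs 6 were below 0, with a median change of -0.39. SNORD81, SNORD75 and SNORD78 were described above. SNORD79 (-0.25) and SNORD44 (-0.26) drew nearly all of their change from culture 2, at -0.70 and -0.75, with changes between -0.04 and -0.01 in the other cultures. SNORD74 (-0.39) drew its change from culture 3, at -1.29, where the DMSO array read 7.16 against 5.89 and 6.16 in the other DMSO arrays. SNORD77, at a signal of 2.70 with X5050 and 2.69 with DMSO, had a change of 0.01. The snoRNAs of this 1 host thus differed by culture among themselves.

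In RPL13A, 3 of 4 had X5050 values all below the DMSO values (7.41% of all tested probe sets). After SNORD33 these were SNORD32A at 5.13, 4.98 and 5.12 with X5050 against 5.32, 5.45 and 5.26 with DMSO (-0.26) and SNORD34 at 3.62, 3.46 and 3.50 with X5050 against 3.82, 3.74 and 3.72 with DMSO (-0.23). The remaining one, SNORD35A, had a change of 0.06 with overlap. In RPL23A all 3 were below 0, SNORD4B at -0.44, SNORD4A at -0.40 and SNORD42A at -0.27, all with overlapping groups. RPL3 held SNORD83A (-0.20, no overlap), SNORD43 (-0.16) and SNORD83B (-0.00136). The 3 members in RABGGTB had changes between -0.23 and 0.02.

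**Figure D5:**
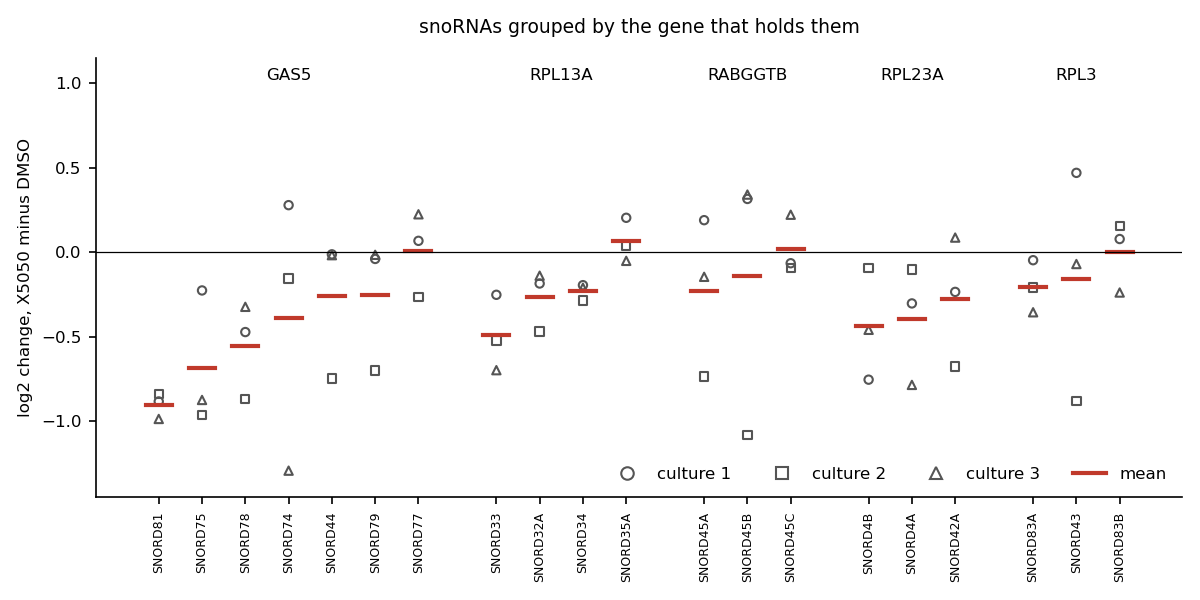
Change (log2 signal, X5050 minus DMSO) of members in 5 hosts outside the imprinted repeats, with open symbols for the 3 cultures and a red bar at the mean. SNORD81 in GAS5 is near -0.90 in every culture, while the other GAS5 members spread by culture.

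Host messenger RNAs could be set beside their snoRNAs where the host had a probe set of its own, for 25 hosts with 35 members. The hosts had a median change of -0.07, between -0.39 and 0.21, and 0 were past the threshold in the paired fit. Their members had a median of -0.16, and 22 of 35 lay below their host. The only probe set with the symbol RPL7A, the host of SNORD36B, had a mean of 11.54 with X5050 and 11.54 with DMSO. Its change was 0.00, where SNORD36B had -0.82. Of 2 RPL23A probe sets the brighter had -0.04 and the other -0.05, where the 3 snoRNAs had a median of -0.40. Each host was represented by its brightest probe set. For RPL7A, RPL23A and RPL5 the number of that probe set lies far from those of the snoRNAs. It may stand for a processed copy elsewhere and not for the host, which was not checked. Probe sets of ribosomal protein genes may also bind their processed copies. These host values, and the correlations below that include them, are therefore uncertain. TNPO2 had the lowest host change, at -0.39, with its snoRNA SNORD41 at -0.53. Across the 25 hosts the change of the host and the median change of its members had a Pearson correlation of 0.23 and a Spearman correlation of 0.26, a weak relation between values from the same arrays. GAS5, RPL13A, NOP56, SNHG14 and MEG8 had no probe set of their own here, so the hosts with the most members could not be set beside them.

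Genes for the particle and for snoRNA processing did not pass the test in either fit. Of the 4 core proteins, 2 had a probe set of their own. FBL, the methyltransferase, had 10.95, 10.97 and 11.01 with X5050 against 10.99, 11.06 and 11.09 with DMSO, a change of -0.07. NOP58 had 10.07, 10.08 and 9.91 with X5050 against 10.45, 10.20 and 10.09 with DMSO, a change of -0.23. The groups of FBL overlapped, and those of NOP58 stood apart by a narrow margin.

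Of 9 assembly factors 5 were below 0, with a median of -0.02. NOPCHAP1, a chaperone of NOP58, had a change of -0.36, and the paired helicases RUVBL1 and RUVBL2 had -0.41 and -0.26, each without overlap and with limma adjusted p-values of 0.122, 0.204 and 0.244 in the paired fit. Of 13 processing and turnover genes 8 were below 0. The exonuclease XRN1 had 9.21, 9.35 and 9.29 with X5050 against 8.84, 9.03 and 8.75 with DMSO, a change of 0.41 without overlap (limma adjusted p = 0.103 in the paired fit). TENT4B, a polymerase that tails snoRNA ends, had a change of 0.26 and the exosome subunit EXOSC3 -0.28, both without overlap.

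Of 18 genes for the U3 particle and the small-subunit processome 14 were below 0, with a median of -0.09 and 0 past the threshold. WDR43, which is also the host of SNORD53, had a change of -0.29, the smallest p of the list without the block. Of 16 genes for RNA polymerase I and the nucleolus 13 were below 0, with a median of -0.15. NHP2, a protein of H/ACA particles, had 2 probe sets, and only the brighter is described. It had 7.40, 6.98 and 7.33 with X5050 against 7.70, 7.80 and 7.97 with DMSO, without overlap. The change was -0.58, with a limma adjusted p of 0.0749 in the paired fit. Whether this probe set stands for the gene or for a processed copy elsewhere was not checked. GAR1, another H/ACA protein, had -0.38, and TAF1D, itself a snoRNA host in annotation, -0.26. Of 16 non-coding snoRNA hosts listed, 2 had a probe set of their own. These were SNHG17 at -0.28, on the brighter of its 2 probe sets, and ZFAS1 at -0.19, both with overlap.

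Members with particular roles were described whatever their change. SNORD13, which guides acetylation of the small-subunit ribosomal RNA and is transcribed from its own gene, had 7.30, 7.62 and 7.61 with X5050 against 7.53, 7.54 and 8.34 with DMSO. Its groups overlapped, and the change of -0.29 came mainly from culture 3. SNORD14C and SNORD14E, which pair with the small-subunit RNA and lie in the chaperone gene HSPA8, had changes of -0.15 and 0.12 with opposite signs between cultures. The DMSO values of SNORD14E were 4.75, 6.28 and 5.62, among the widest of all members.

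The spread between cultures limited what could be seen. The median SD of a member was 0.15 over the X5050 arrays and 0.19 over the DMSO arrays, against 0.11 and 0.13 over all tested probe sets. SNORD13P2, a pseudogene symbol, was the widest, at 4.03, 5.59 and 3.99 with X5050 against 4.83, 3.51 and 6.41 with DMSO. Its change within a culture ran from -2.42 to 2.09, wider than any other member's. SNORD50B, in SNHG5, had cultures at 0.46, -1.33 and -0.60, and SNORD42A had DMSO values between 3.58 and 4.72.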

How the data were processed

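Each of 6 samples was hybridised to 1 Affymetrix whole-transcript array. The log2 signal of each probe set was deposited by the authors, who used RMA and Partek per the submitters' processing notes. Their versions, settings and annotation build are not given in the sources used for this text. RMA compresses changes of dim probe sets. Array medians lay between 5.68 and 5.75, and no detection measure was used.

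Of 33297 probe sets 19460 have a single gene symbol and were tested, X5050 against DMSO, by two-sided moderated tests of limma 3.58.1 (functions lmFit and eBayes) in R 4.3.3 with statmod 1.5.0. Benjamini-Hochberg adjustment covered all of them, at a threshold of 0.05. A second, paired fit took the culture as a block, with 2 residual degrees of freedom in place of 4. The pairing comes from the design text and was checked by correlating deviations from group means, which gave 0.365, 0.297 and 0.255 for same-numbered samples and -0.236 to -0.052 for the others. The fits were tested on simulated data with 200 changed probe sets. Of changes of 0.5 log2 units each fit recovered 0 of 200. Of changes of 1.0 the fit without the block recovered 160 and the paired fit 137, with 6 and 2 false calls. A change of about 0.5 that did not pass is thus not shown to be absent. Plots used Python 3.11.15 and matplotlib 3.10.9.

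Members and gene lists were chosen with earlier results of these data known. The rule named 39 members: those past the threshold in either fit, the first 8 by p in each direction of either fit, the first 3 by p of each imprinted group, the 5 with the widest DMSO values, the 3 highest and 3 lowest DMSO means, and members with a set role. SNORD59B, SNORD41 and further members of hosts with at least 3 were named after their values were seen. Hosts were to share the snoRNA's strand, but the RefSeq table (GRCh38.p14) gives none, so the shortest gene spanning the snoRNA was taken. The results of 1 host are not reported here. Starts come from the RefSeq promoter table. Alternatives were the block, centring, quantile normalization, leaving out dim probe sets, testing all probe sets, a variance trend, the median over a symbol's probe sets, and leaving out arrays or cultures.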

Additional observations from a re-analysis of the deposited data

How the results depend on the processing

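Over all tested probe sets 0 passed without the block and 97 with the replicate block. Leaving out 1 array gave 0 to 1, with 1 without DMSO replicate 1, and leaving out 1 culture in the paired fit gave 346 without culture 1, 81 without culture 2 and 0 without culture 3. Of the C/D box members 0 passed without the block, 2 with the replicate block, 8 in the paired fit without culture 1, 2 without culture 2 and 0 without culture 3. The replicate block changed no other call of a named member. The median change of all members was -0.26 without dim probe sets, -0.067 in the paired fit without culture 2, and -0.16 to -0.047 when 1 array was left out. Leaving out 1 array gave medians of -0.044 to 0.044 for SNORD115, -0.030 to 0.12 for SNORD113 and -0.20 to -0.090 for SNORD114. Without culture 3 the SNORD114 median was -0.081, and without culture 2 that of the 69 other members was -0.084. SNORD115, SNORD113 and SNORD114 had no members left without dim probe sets. When 1 array was left out, some named members crossed 0. These were SNORD113-3 (-0.087 to 0.14), SNORD113-4 (-0.015 to 0.10), SNORD115-4 (-0.054 to 0.038), SNORD115-14 (-0.020 to 0.13), SNORD115-41 (-0.00015 to 0.17), SNORD116-6 (-0.16 to 0.13), SNORD13P2 (-1.09 to 0.37), SNORD14C (-0.35 to 0.082), SNORD14E (-0.28 to 0.49), SNORD42A (-0.51 to 0.065), SNORD50A (-0.025 to 0.29), SNORD53 (-0.19 to 0.37) and SNORD56B (-0.043 to 0.40). In the paired fit the sign turned without culture 1 for SNORD114-26 (0.055), SNORD50A (-0.029), SNORD14C (0.027) and SNORD14E (-0.15), without culture 2 for SNORD113-3 (-0.015), SNORD115-4 (0.047), SNORD116-6 (0.023) and SNORD56B (-0.013), and without culture 3 for SNORD115-2 (-0.0062), SNORD116-6 (0.16), SNORD74 (0.062) and SNORD13P2 (0.64). The cause was not tested. No named member changed direction under the settings that kept all 6 arrays. The 3 cultures of 1 line and the dim signal of many probe sets limit the precision.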
